A study of Mus musculus with 36 samples.

Results

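Complex I (NADH:ubiquinone oxidoreductase) is the entry point for electrons from NADH into the respiratory chain of mitochondria. Its matrix arm oxidises NADH and passes the electrons through iron-sulfur clusters to ubiquinone, and its membrane arm pumps protons across the inner membrane. A catalytic core, shared with bacteria and encoded partly in the mitochondrial genome, is surrounded by accessory subunits from nuclear genes. Heart muscle is rich in the complex, which is also a site of superoxide formation. The nuclear genes were taken as all listed genes whose symbol is Ndufa, Ndufb, Ndufc, Ndufs or Ndufv followed by a digit, leaving out symbols marked as pseudogenes. This gave 41 of the 25626 listed genes. By textbook role, 36 of them encode subunits of the assembled complex: 7 core subunits of the matrix arm, 9 accessory subunits of the matrix arm and 20 accessory subunits of the membrane arm. The other 5 are Ndufa4, now counted with complex IV, its hypoxia-inducible relative Ndufa4l2, and the single-exon copies Ndufs6b, Ndufa11b and Ndufb4c.

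RNA was sequenced from whole hearts of mice in 6 groups of 6, in a search for routes from oxidants made in mitochondria to the heart disease of cSirt4-Tg mice. Con-Sham and Tg-Sham were Control and cSirt4-Tg mice with sham surgery and vehicle. Con-TAC and Tg-TAC received vehicle after transverse aortic constriction (TAC), a narrowing of the aorta that puts a pressure load on the left ventricle. Con-TAC-MQ and Tg-TAC-MQ had TAC and received MitoQ, an antioxidant that accumulates in mitochondria. The labels give neither age, sex, time after surgery and MitoQ dose nor what drives the cSirt4 transgene. They number the mice of a group without naming litters or days. Every value below is a normalized read count as deposited, a read count divided by 1 factor per library. Differences are log2(value + 1) differences with their standard error (SE) from limma, over 6 libraries per group, with p-values adjusted over 16275 tested genes. A gene was called when its adjusted p was under 0.05.

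The libraries held 14834719 to 60010648 reads (median 28365692). Sirt4, the gene the mice are named for, was 253.0 to 606.2 over all libraries. Its log2 difference between cSirt4-Tg and Control was -0.11 after sham, 0.09 after TAC and -0.02 after TAC with MitoQ (exact two-sided permutation p = 0.539, 0.528 and 0.742; Benjamini-Hochberg adjusted p over the 3 tests = 0.742 for each), so the gene value does not tell the genotypes apart. Of 12 cardiomyocyte markers, only Myl7, the light chain of atrial myosin, was at 0 in any library, in 5 of the 6 groups. The library labelled Tg-TAC 6 had 3535 counts of Nppa, the atrial natriuretic peptide gene that rises with cardiac load, where the other Tg-TAC libraries had 94193 to 245197 and Con-Sham 4266 to 7403. Its Dmd value, 2493, was above the 1044 to 1838 of all other cSirt4-Tg libraries and within the 2349 to 5230 of the Control libraries. Dmd was chosen for this check after its values were seen. Not every gene looked at went this way. The Mmp12 value of the library labelled Tg-TAC 6, 30.06, was within the 16.17 to 50.87 of Tg-TAC. It was above all Con-Sham (up to 18.61) and Con-TAC libraries (up to 24.39), while Con-TAC-MQ reached 91.15. Its Nppb value, 10169, was the lowest of Tg-TAC but above the 4009 to 5951 of Con-Sham. Tg-TAC 4 had the fewest reads and summed adipocyte markers of 35427, where the median of its group was 932.6. Library names carry a number whose meaning the labels do not give. All MitoQ libraries carry 20 or 21, and Con-TAC 6 carries 20. The number is 7 to 14 in the other 5 Con-TAC libraries, in 5 Tg-TAC libraries and in 3 libraries of each sham group, and 29 to 31 in the remaining sham libraries and in Tg-TAC 6.

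Sequences are shown first for the pair whose reads can be mistaken for each other. Ndufs6 encodes a zinc-binding subunit of the matrix arm (ENSMUSG00000021606, mm39 chr13:73467957-73476661, minus strand), and Ndufs6b is an intronless copy of it (ENSMUSG00000083820, mm39 chr7:80811145-80811492, minus strand). The coding sequence of Ndufs6 and the transcript of Ndufs6b, both of 348 bases in GENCODE M21, aligned over 335 identical bases with 12 mismatches and 2 unpaired end bases, an identity of 96.5%. The longest identical run was 82 bases. The first 280 columns of the alignment are shown, which hold all 12 mismatches. Capitals mark the bases that differ or have no partner.
Ndufs6: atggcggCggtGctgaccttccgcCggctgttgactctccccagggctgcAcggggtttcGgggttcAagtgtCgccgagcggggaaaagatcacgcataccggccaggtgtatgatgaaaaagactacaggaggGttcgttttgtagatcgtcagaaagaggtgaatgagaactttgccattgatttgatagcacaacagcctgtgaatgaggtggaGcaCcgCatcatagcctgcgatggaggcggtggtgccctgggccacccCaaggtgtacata
Ndufs6b: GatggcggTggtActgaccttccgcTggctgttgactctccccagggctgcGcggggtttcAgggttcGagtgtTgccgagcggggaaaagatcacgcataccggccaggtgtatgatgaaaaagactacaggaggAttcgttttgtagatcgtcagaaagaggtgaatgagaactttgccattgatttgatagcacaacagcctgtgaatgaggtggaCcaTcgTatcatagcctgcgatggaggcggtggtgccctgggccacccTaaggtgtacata
A read from the identical run cannot be told from either gene, and the sources used here do not say how the authors' counting treated such reads. Ndufs6b, at 3.593 to 55.01 counts, beside 3022 to 8774 for Ndufs6, is therefore reported as uncertain throughout. It also lies on the strand opposite to Slc28a1.

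Promoters are shown because the subunits varied together from library to library, as described after their levels. RefSeq promoters (GRCm38.p6, 250 bases before to 50 after the start) were matched for 33 of the 41 genes and for 27025 genes in all, and 5 motifs were searched on both strands. The NRF1 motif CGCNTGCGC was in 8 of the 33 (24.2%) and in 7.03% of all promoters. The YY1 motif AAGATGGCG was in 5 (15.2%) and in 1.64% of all. The other motifs were in 3.03% (GABPA, CCGGAAGT, against 4.31% of all), in 6.06% (E-box, CACGTG, against 8.09%) and in none (ERR, TCAAGGTCA, against 0.466%). The NRF1 and YY1 motifs can share letters at an end, and in Ndufs6 they lie apart. The NRF1 motif was found for Ndufa5, Ndufa6, Ndufa8, Ndufa11, Ndufb4, Ndufb10, Ndufs5 and Ndufs6, and the YY1 motif for Ndufa9, Ndufc1, Ndufs4, Ndufs6 and Ndufs7. Ndufs6 (chr13:73328433-73328732, minus strand) holds both, Ndufs7 (chr10:80249199-80249498, plus strand) the YY1 motif, and Ndufa8 (chr2:36049289-36049588, minus strand) the NRF1 motif at 2 places. Capitals mark them.
Ndufs6 promoter: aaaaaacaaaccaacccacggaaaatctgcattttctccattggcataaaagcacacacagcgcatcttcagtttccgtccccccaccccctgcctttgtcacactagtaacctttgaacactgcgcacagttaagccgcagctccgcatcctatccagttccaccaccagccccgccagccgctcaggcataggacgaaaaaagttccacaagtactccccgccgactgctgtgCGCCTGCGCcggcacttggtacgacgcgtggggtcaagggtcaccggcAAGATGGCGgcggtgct
Ndufs7 promoter: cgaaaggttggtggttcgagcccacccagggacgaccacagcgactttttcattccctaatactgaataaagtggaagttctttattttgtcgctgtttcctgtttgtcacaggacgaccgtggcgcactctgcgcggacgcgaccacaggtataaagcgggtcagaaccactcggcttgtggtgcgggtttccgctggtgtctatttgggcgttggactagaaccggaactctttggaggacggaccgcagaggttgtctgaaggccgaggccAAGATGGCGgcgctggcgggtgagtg
Ndufa8 promoter: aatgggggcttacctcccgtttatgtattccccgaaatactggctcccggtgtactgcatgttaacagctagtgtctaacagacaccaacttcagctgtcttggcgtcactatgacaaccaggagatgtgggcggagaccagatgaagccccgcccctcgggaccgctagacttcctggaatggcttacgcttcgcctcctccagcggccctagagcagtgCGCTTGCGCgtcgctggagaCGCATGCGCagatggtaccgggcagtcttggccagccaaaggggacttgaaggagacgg
In Ndufs6 the YY1 letters run into the start of the coding sequence printed above. These matches describe letters in the window and were not tested as binding sites.

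Levels are compared per kilobase of the longest protein-coding transcript in GENCODE M21, as means over Con-Sham. Ndufa4 was the highest at 22658 counts per kilobase. Among the highest of the 36 subunits were Ndufb10, of the membrane arm (16954), and Ndufv1, the core subunit that binds NADH and FMN (13431). Ndufa9 (9837), Ndufa8 (9782) and Ndufs1, the largest iron-sulfur subunit (9392), followed. The lowest subunits were Ndufb2 (80.02), Ndufb4 (909.3), Ndufs5 (1572) and Ndufb1 (2069). The transcript taken for Ndufb2 has 4371 bases, where the median over the subunits was 944.5. Ndufa4l2 was at 428.0 per kilobase and Ndufs6b at 95.74. Ndufa11b and Ndufb4c were too low to be tested: their Con-Sham means were 1.133 and 4.612 counts, and they were at 0 in 12 and 4 libraries. The other 39 genes were tested, all 36 subunits among them.

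The subunits varied together from heart to heart. With each library expressed as its deviation from its group mean, all 630 pairs of the 36 subunits had a positive correlation over the 36 libraries, with a median r of 0.88 and a lowest r of 0.18. The pairs share the library and its scaling factor, so r is a description. Ndufb10 and Ndufs8, a core iron-sulfur subunit, had the highest mean r with the others (0.90), and Ndufb2 (0.60), Ndufa12 (0.66), Ndufb4 (0.68) and Ndufs1 (0.70) the lowest. The mean log2 level of the 36 subunits, relative to the Con-Sham mean, is used below as a summary of each library, with no test. It was -0.10 to 0.20 in Con-Sham and -0.36 to 0.26 in Tg-Sham. In Con-TAC it was -0.74 in Con-TAC 6 and -0.06 to 0.34 in the others. In Tg-TAC it was -0.89 in Tg-TAC 4, 0.27 in the library labelled Tg-TAC 6 and -0.43 to -0.14 in the other 4. It was -0.62 to -0.13 in Con-TAC-MQ and -0.46 to -0.18 in Tg-TAC-MQ. Thus every MitoQ library was below the lowest Con-Sham library, whereas the vehicle TAC groups each held libraries on both sides of 0.

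**Figure D1:**
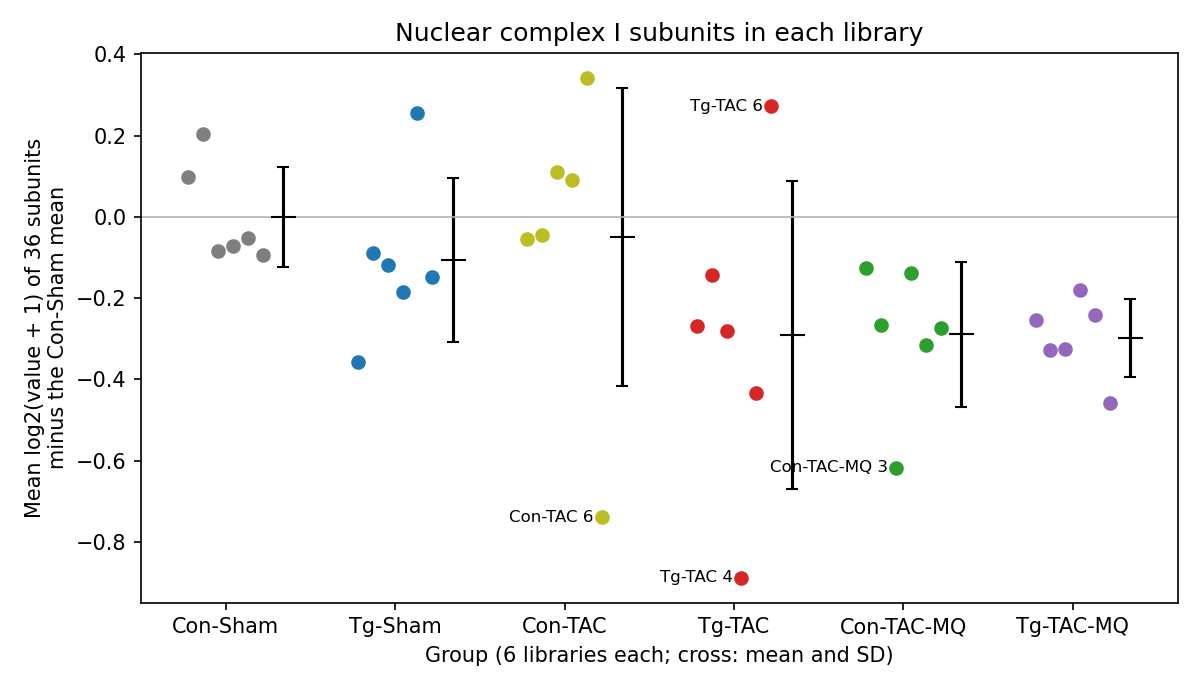
Mean log2 level of the 36 complex I subunits in each of the 36 libraries (points; y axis, log2 difference from the Con-Sham mean) by group, with the group mean and SD. Con-TAC 6 (-0.74) and Tg-TAC 4 (-0.89) are the lowest libraries, and the library labelled Tg-TAC 6 (0.27) lies above all other Tg-TAC libraries.

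With TAC in cSirt4-Tg hearts 4 of the 39 genes were called: among them the core subunit Ndufs1 and the copy Ndufs6b fell and Ndufa4l2 rose. Of all tested genes, 8.77% were called lower and 7.91% higher in Tg-TAC than in Tg-Sham, against 3 and 1 of the 39. Neither count was thus above the share of all genes. The median difference of the 39 was -0.19 and 34 were negative, where the median of all genes was within 0.02 of 0. All 7 core subunits were negative (median -0.28), as were all 9 accessory subunits of the matrix arm (-0.19) and 16 of the 20 of the membrane arm (-0.15). Ndufs1 (ENSMUSG00000025968, mm39 chr1:63182755-63215992, minus strand) carries electrons from the NADH site towards ubiquinone. In Tg-Sham it was 19533 at the lowest, 21504 at the median and 24421 at the highest. In Tg-TAC the 6 libraries had 12640, 15068, 13600, 8817, 12749 and, in the library labelled Tg-TAC 6, 27543. The first 5 lay below all Tg-Sham libraries and the last above all of them. The difference was -0.63 (SE 0.16, limma adjusted p = 0.00767, edgeR 0.0187, DESeq2 0.00883). Without the library labelled Tg-TAC 6 it was -0.82 (SE 0.13, limma adjusted p = 2.25e-05), and every fit that left out 1 library kept the call.

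Ndufv1, the NADH-binding core subunit, was -0.41 (SE 0.16, adjusted p = 0.069) and Ndufa10, of the membrane arm, -0.32 (SE 0.12, adjusted p = 0.0528), both uncalled. Without the library labelled Tg-TAC 6, 10 of the 39 were called lower and 1 higher, where 14.9% and 13.4% of all genes were. Among the 10 were Ndufs1, Ndufs3, Ndufs4, Ndufs6, Ndufs6b, Ndufv1, Ndufa5, Ndufa9 and Ndufa10. Without that library and Tg-TAC 4, an alternative chosen after the data were seen, Ndufs1 (-0.70), Ndufv1 (-0.50) and Ndufs6b (-1.32) were among those lower and Ndufa4l2 higher (0.47), beside 11.7% and 10.9% of all genes. In a fit on only the 12 libraries of these groups, Ndufa4l2 alone was called (adjusted p = 0.0444, with 2.35% of all genes higher), with Ndufs1 at 0.0821.

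Ndufa4l2 (ENSMUSG00000040280, mm39 chr10:127350836-127353023, plus strand) encodes a mitochondrial protein that is known to be induced by hypoxia. It was 308.0, 335.7 and 474.2 at the lowest, median and highest in Tg-Sham and 432.4, 490.6 and 532.8 in Tg-TAC. All Tg-TAC libraries, the one labelled Tg-TAC 6 included, were above the Tg-Sham mean of 361.6. The difference was 0.44 (SE 0.11, limma adjusted p = 0.00857), and every fit that left out 1 library kept the call. Shmt2, which overlaps it on the opposite strand, averaged 1116 counts over all libraries against 407.3 for Ndufa4l2. Use of strand in the counting is not stated, so reads of the pair may be shared. Ndufs1 likewise overlaps Eef1b2 (4049 against 20412) and Ndufb2 overlaps Braf (718.3 against 357.8). Ndufs6b fell by 1.27 (SE 0.32, limma adjusted p = 0.00798), from a median of 16.9 to one of 5.884 counts.

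Markers of other cells moved in the same comparison. Of 12 cardiomyocyte markers 4 were called lower in Tg-TAC than in Tg-Sham, and of 12 fibroblast markers 6 were called higher. Of 10 mural cell markers 4 were called higher and 1 lower, of 10 endothelial markers 1 higher and 1 lower, and of 5 adipocyte and 5 lymphocyte markers 1 each higher. Summed cardiomyocyte markers were 2054010 to 2478232 in Tg-Sham and 1151297 to 2814106 in Tg-TAC, with medians of 2373322 and 1730435. Summed fibroblast markers were 73853 to 104138 and 79175 to 185686. In whole-heart RNA, fewer cardiomyocytes and less RNA per cardiomyocyte cannot be told apart. The part of the cell mixture in the subunit differences was not tested.

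**Figure D2:**
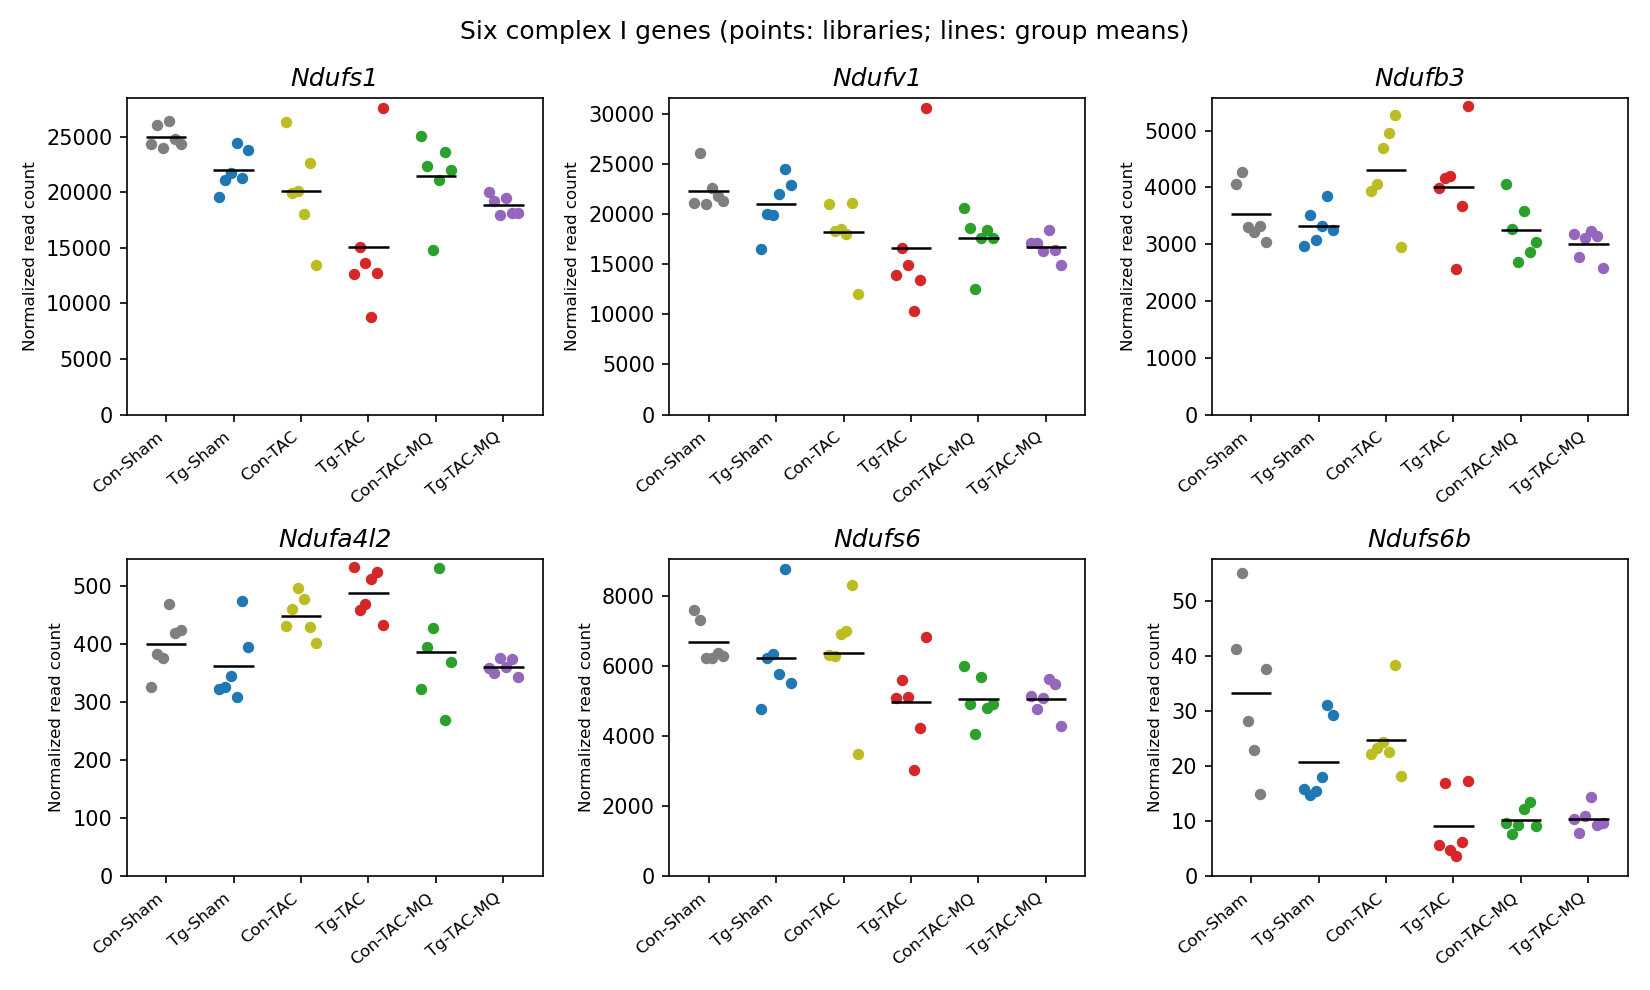
Normalized read counts (y axis, linear from 0) of Ndufs1, Ndufv1, Ndufb3, Ndufa4l2, Ndufs6 and Ndufs6b in each library (points) by group, with lines at the group means. Ndufs1 in Tg-TAC lies between 8817 and 15068 in 5 libraries and at 27543 in the library labelled Tg-TAC 6.

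With TAC in Control hearts none of the 39 genes was called, where 5.3% of all genes were called between Con-TAC and Con-Sham. Unadjusted p was under 0.05 for 2 of the 39, and edgeR and DESeq2 called 0. The median difference was -0.05, with 26 of 39 negative. Core subunits had a median of -0.20, accessory subunits of the matrix arm -0.11 and of the membrane arm -0.02. With libraries set to equal totals outside the mitochondrial genome, the median of all genes moved from 0.01 to 0.11. That of the 39 moved from -0.05 to 0.05, so no direction is given for the family here. The nearest to a call was Ndufs1, which was 24993 ± 1002 (SD, n = 6) in Con-Sham and 20097 ± 4321 (SD, n = 6) in Con-TAC (-0.34, SE 0.16, limma adjusted p = 0.195). Without Tg-TAC 4 and the library labelled Tg-TAC 6, which narrows the shared spread, Ndufs1 was the 1 gene called, at the same difference (adjusted p = 0.0394, with 5.22% of all genes lower). Ndufb3 and Ndufb2, both of the membrane arm, had positive differences of 0.27 (SE 0.13, adjusted p = 0.215) and 0.34 (SE 0.18, adjusted p = 0.249). Within the libraries named 7 to 14, 5 of Con-TAC and 3 of Con-Sham, no gene of the 39 was called (0.147% of all genes) and their median was 0.02. With all libraries, 5 of 6 erythroid and 3 of 12 fibroblast markers were called higher. All 12 fibroblast markers were positive (median 0.47). Of 10 mural cell markers 1 was called higher and 1 lower, and of 10 endothelial and 5 adipocyte markers 1 each higher. Limma called 0 of 12 cardiomyocyte and 0 of 12 macrophage markers. The part of these markers was not tested.

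In sham hearts the genotypes did not differ in any call. Of the 39 genes, 37 were lower in Tg-Sham than in Con-Sham, with a median of -0.12 and 95% intervals that included 0 for all 39. Limma, edgeR and DESeq2 called 0, unadjusted p was under 0.05 for 0, and limma called 0.873% of all genes. Ndufs1 was 21988 ± 1825 (SD, n = 6) against 24993 ± 1002 (SD, n = 6), a difference of -0.19 with a 95% interval of -0.51 to 0.14 (adjusted p = 0.658). Within the libraries named 7 to 14 all 39 were lower, with a median of -0.26 and no call (0.147% of all genes). Of 12 macrophage markers 7 were called higher in Tg-Sham, with sums of 13100 to 19318 against 7280 to 10041. All 12 fibroblast markers were positive (median 0.65), 11 with an unadjusted p under 0.05 and 1 called. Of the 12 cardiomyocyte markers none was called and 8 were negative (median -0.16). The part of these markers was not tested.

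After TAC with vehicle, the number of subunits called between cSirt4-Tg and Control hearts depended on 3 libraries, Con-TAC 6, Tg-TAC 4 and the library labelled Tg-TAC 6. Of the 39 genes 36 were lower in Tg-TAC than in Con-TAC, with a median of -0.27, and Ndufs6b alone was called, where 3.29% of all genes were called lower. Unadjusted p was under 0.05 for 12. DESeq2 called 4, beside 4.54% of all genes lower: Ndufs6b, Ndufv2 (-0.41), Ndufa10 (-0.33) and Ndufs5 (-0.36). Ndufs1 was 26336, 19918, 20140, 18052, 22648 and, in Con-TAC 6, 13485 in Con-TAC. Beside the Tg-TAC values given above, 5 Tg-TAC libraries were below all Con-TAC libraries but Con-TAC 6, and the library labelled Tg-TAC 6 was above all of them. The difference was -0.48 (SE 0.16, limma adjusted p = 0.0597). Ndufv2, a core iron-sulfur subunit, was -0.42 (SE 0.15, adjusted p = 0.0715), Ndufs5, of the membrane arm, -0.35 (SE 0.12, adjusted p = 0.0684) and Ndufa10 -0.33 (SE 0.12, adjusted p = 0.0688).

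Con-TAC 6 and the library labelled Tg-TAC 6 are the only vehicle TAC libraries whose name number is not 7 to 14. Among the 10 vehicle TAC libraries named 7 to 14, which include Tg-TAC 4, 33 of the 39 genes were called lower, 31 of them among the 36 subunits, where 12.3% of all genes were. The median was -0.51. Ndufs1 was -0.78 (SE 0.13, limma adjusted p = 0.00039), Ndufs4, an accessory subunit of the matrix arm, -0.60 (SE 0.11, adjusted p = 0.000842), Ndufb2 -0.77 (SE 0.15, adjusted p = 0.00165) and Ndufv2 -0.66 (SE 0.14, adjusted p = 0.00204). The 6 not called were Ndufa2, Ndufa4l2, Ndufa7, Ndufa11, Ndufa12 and Ndufb3. Leaving out Con-TAC 6 alone gave 25 lower (8.9% of all genes), leaving out the library labelled Tg-TAC 6 alone gave 18 (11.4%), and the name number class as a covariate gave 26 (10.3%). Leaving out the library labelled Tg-TAC 6 together with Tg-TAC 4 gave 3: Ndufs1 (-0.55), Ndufb2 (-0.58) and Ndufs6b (-1.59), where 6.35% of all genes were lower. A fit on only the libraries of both groups called 0 of them and 0.0% of all genes lower. The direction was thus the same in these fits, and the number called ran from 0 to 33. With all libraries, markers of other cells were called in the same comparison. They were macrophage markers (6 of 12 higher), fibroblast markers (3 higher), mural cell markers (3 higher and 1 lower) and endothelial markers (1 lower). The share of all genes called higher is not given here. Unadjusted p was under 0.05 for 26.5% of all genes. It was so for 10 of 12 macrophage, 10 of 12 fibroblast, 7 of 10 mural cell and 4 of 10 endothelial markers. Limma called 0 of 12 cardiomyocyte markers and DESeq2 called 1. Of these 12, 10 were negative and 2 positive (median -0.34), and 5 had an unadjusted p under 0.05. Without Myl7, their mean log2 level relative to the Con-Sham mean was -0.22 to 0.11 in the Con-TAC libraries named 7 to 14. In the Tg-TAC libraries so named it was -1.11 to -0.36. Summed macrophage markers were 8481 to 12577 in Con-TAC and 9314 to 22736 in Tg-TAC, and summed fibroblast markers 59442 to 114985 and 79175 to 185686. The part of these markers, the cardiomyocyte markers included, in the subunit differences was not tested.

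**Figure D3:**
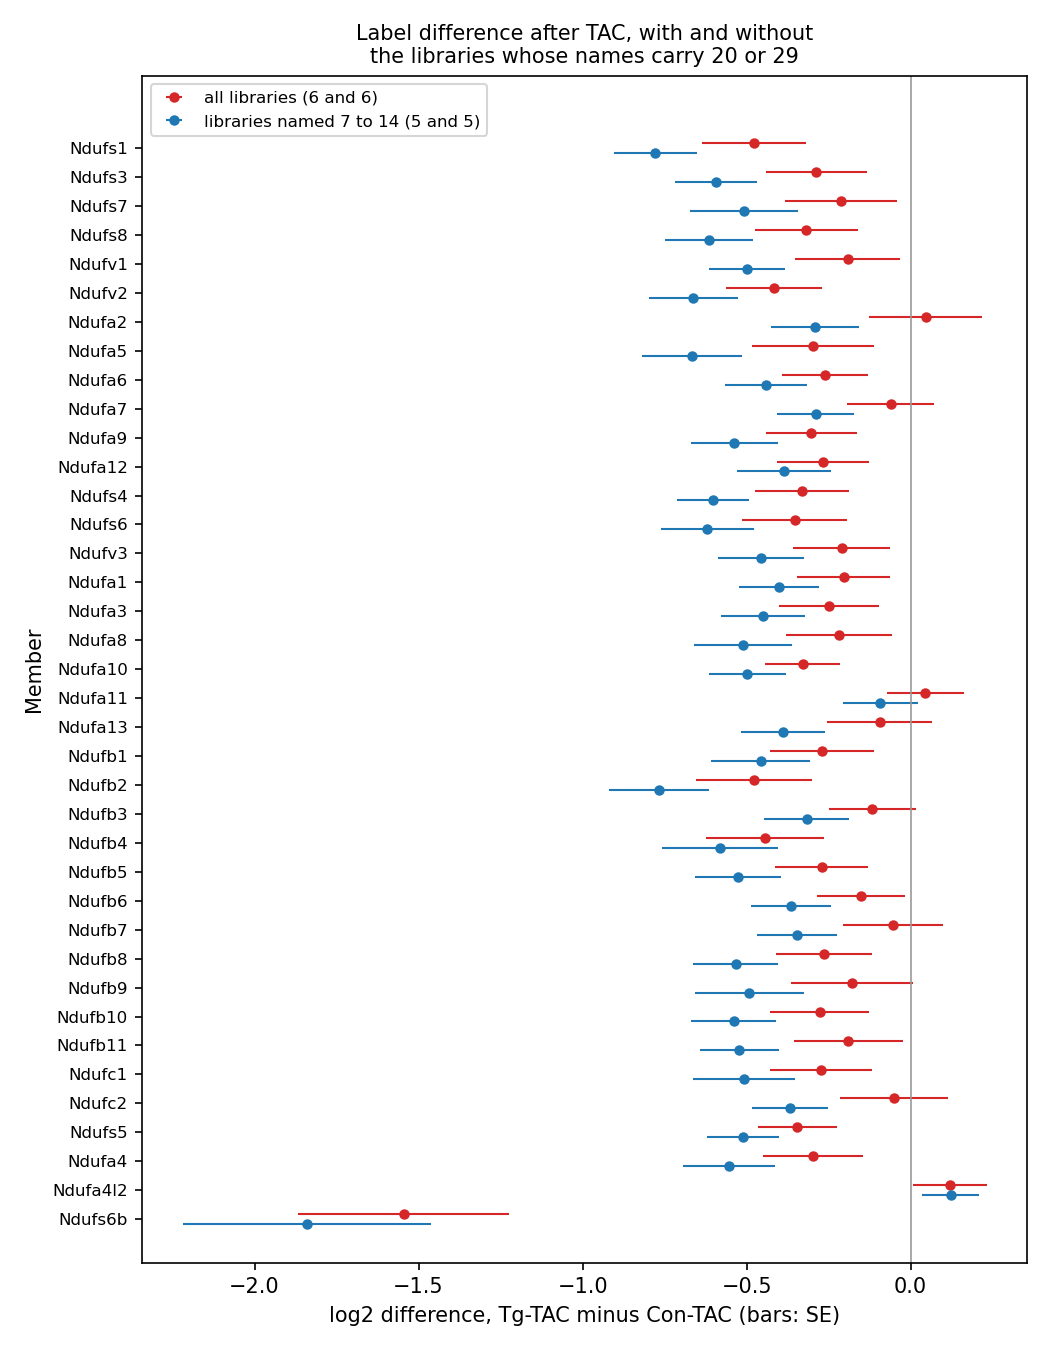
Log2 difference Tg-TAC minus Con-TAC (x axis, points with SE bars) of 38 tested genes, from all libraries and from the libraries named 7 to 14. Ndufs1 is at -0.48 with all libraries and at -0.78 with the libraries named 7 to 14.

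Ndufs6b fell in this comparison by 1.54 (SE 0.32, limma adjusted p = 0.00935, edgeR 0.0182, DESeq2 0.00666). It was 18.19, 22.84 and 38.37 counts at the lowest, median and highest in Con-TAC and 3.593, 5.884 and 17.34 in Tg-TAC, so the groups did not overlap, which held for 0.412% of all genes in this direction. Its parent Ndufs6 was 6391 ± 1602 against 4988 ± 1287 (SD, n = 6 each; -0.35, SE 0.16, adjusted p = 0.155). The call of Ndufs6b held whichever single library was left out, but not in the fit on only the 12 libraries (adjusted p = 0.195), and it is too low for the minimum of 50 counts.

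After TAC with MitoQ no gene was called between the genotypes. The median difference of the 39 between Tg-TAC-MQ and Con-TAC-MQ was -0.01, 23 were negative, and 0 were called by limma, edgeR or DESeq2 or had an unadjusted p under 0.05. Limma called 0.0737% of all genes. Ndufs1 was 18829 ± 851 against 21495 ± 3530 (SD, n = 6 each; -0.17, 95% interval -0.50 to 0.15). Ndufs6b was 10.39 ± 2.24 against 10.19 ± 2.19 (SD, n = 6 each).

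MitoQ after TAC was compared with vehicle within each genotype. All 12 MitoQ libraries carry name numbers 20 or 21, and of the vehicle TAC libraries Con-TAC 6 alone does, so MitoQ and the name number cannot be told apart except through that library. The 18S ribosomal RNA gene Rn18s-rs5 also separated these libraries, at 183064 to 389650 in Con-TAC-MQ and 153228 to 361615 in Tg-TAC-MQ, where it was 468424 or more in every vehicle library. Its part in the differences was not tested. In Control hearts Ndufs6b fell by 1.19 with MitoQ (SE 0.32, limma adjusted p = 0.0347), from 18.19 to 38.37 counts in Con-TAC to 7.61 to 13.5 in Con-TAC-MQ, and none of the subunits was called, where 1.31% of all genes were called lower. The call of Ndufs6b was lost in 9 of the 12 fits that left out 1 library. Of the 39 genes 38 were lower in Con-TAC-MQ, with a median of -0.25, 12 with an unadjusted p under 0.05. All 20 accessory subunits of the membrane arm were lower (median -0.27) and core subunits had a median of -0.10. The nearest subunit was Ndufb3 (-0.40, SE 0.13, adjusted p = 0.0869), which DESeq2 called (adjusted p = 0.0489, with 2.25% of all genes lower). The count rests on Con-TAC 6. Without it 19 of the 39 were called lower, 17 of them subunits, where 4.6% of all genes were, and the median was -0.40. With the name number class as a covariate, which leaves Con-TAC 6 as the only vehicle library for the contrast, the median was 0.46 and 0 were called (1.38% of all genes). Of 12 cardiomyocyte, 12 fibroblast and 12 macrophage markers limma called 0 in this comparison, and DESeq2 called 1 macrophage marker. Summed cardiomyocyte markers were 1335184 to 2660565 in Con-TAC, lowest in Con-TAC 6, and 1532808 to 2662925 in Con-TAC-MQ.

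In cSirt4-Tg hearts MitoQ was compared with vehicle in Tg-TAC-MQ and Tg-TAC. Ndufa4l2 and Ndufb3 fell, and 7.44% of all genes were called lower and 9.89% higher. Ndufa4l2 was 432.4 to 532.8 in Tg-TAC and 342.7 to 375.1 in Tg-TAC-MQ, with medians of 490.6 and 359.7, and the groups did not overlap, as for 2.91% of all genes in this direction. The difference was -0.43 (SE 0.11, limma adjusted p = 0.00862). With equal totals outside the mitochondrial genome it was -0.33 (limma adjusted p = 0.0537), so the call was lost. Those totals include Rn18s-rs5, at 634139 to 3155923 in Tg-TAC against 153228 to 361615 in Tg-TAC-MQ, and its part was not tested. With the name number class as a covariate, which compares MitoQ with vehicle only through Con-TAC 6, the difference of Ndufa4l2 was -0.22. Tg-TAC-MQ differed from Tg-Sham by 0.01 (95% interval -0.22 to 0.24). Ndufb3 (ENSMUSG00000026032, mm39 chr1:58625543-58635123, plus strand), a small accessory subunit of the membrane arm, was 2556, 4074 and 5432 at the lowest, median and highest in Tg-TAC and 2590, 3135 and 3242 in Tg-TAC-MQ, so the groups overlapped. Its difference was -0.38 (SE 0.13, limma adjusted p = 0.0437), and 10 of the 12 fits that left out 1 library lost the call. It was -0.28 (adjusted p = 0.114) with equal totals and 0.26 with the covariate, through Con-TAC 6 alone. Both genes share their Tg-TAC libraries with the comparison to Tg-Sham, where Ndufa4l2 was 0.44 and Ndufb3 0.24 (adjusted p = 0.22).

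The 7 core subunits were all higher with MitoQ in cSirt4-Tg hearts (median 0.09), and none was called. Ndufs1 was 17958, 18668 and 19995 at the lowest, median and highest in Tg-TAC-MQ, above 5 of the 6 Tg-TAC libraries (0.41, SE 0.16, limma adjusted p = 0.0681). Without the library labelled Tg-TAC 6 it was called higher (0.60, SE 0.13, limma adjusted p = 0.000727, with 14.8% of all genes), as without that library and Tg-TAC 4 (0.48, limma adjusted p = 0.00503, with 12.4%). Membrane arm accessory subunits had a median of -0.05 and those of the matrix arm -0.02. Over all 39 the median was -0.01 with 24 negative. With equal totals outside the mitochondrial genome, Rn18s-rs5 included, the median of all genes was 0.10. That of the 39 was then 0.09, and the split turned to 10 negative. Ndufs1 was then called higher (0.51, limma adjusted p = 0.00988). With the name number class as a covariate 25 were called higher (median 0.83, 7.82% of all genes). In this comparison 2 of 12 cardiomyocyte markers were called higher and 4 of 12 fibroblast markers lower, and their part was not tested.

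**Figure D4:**
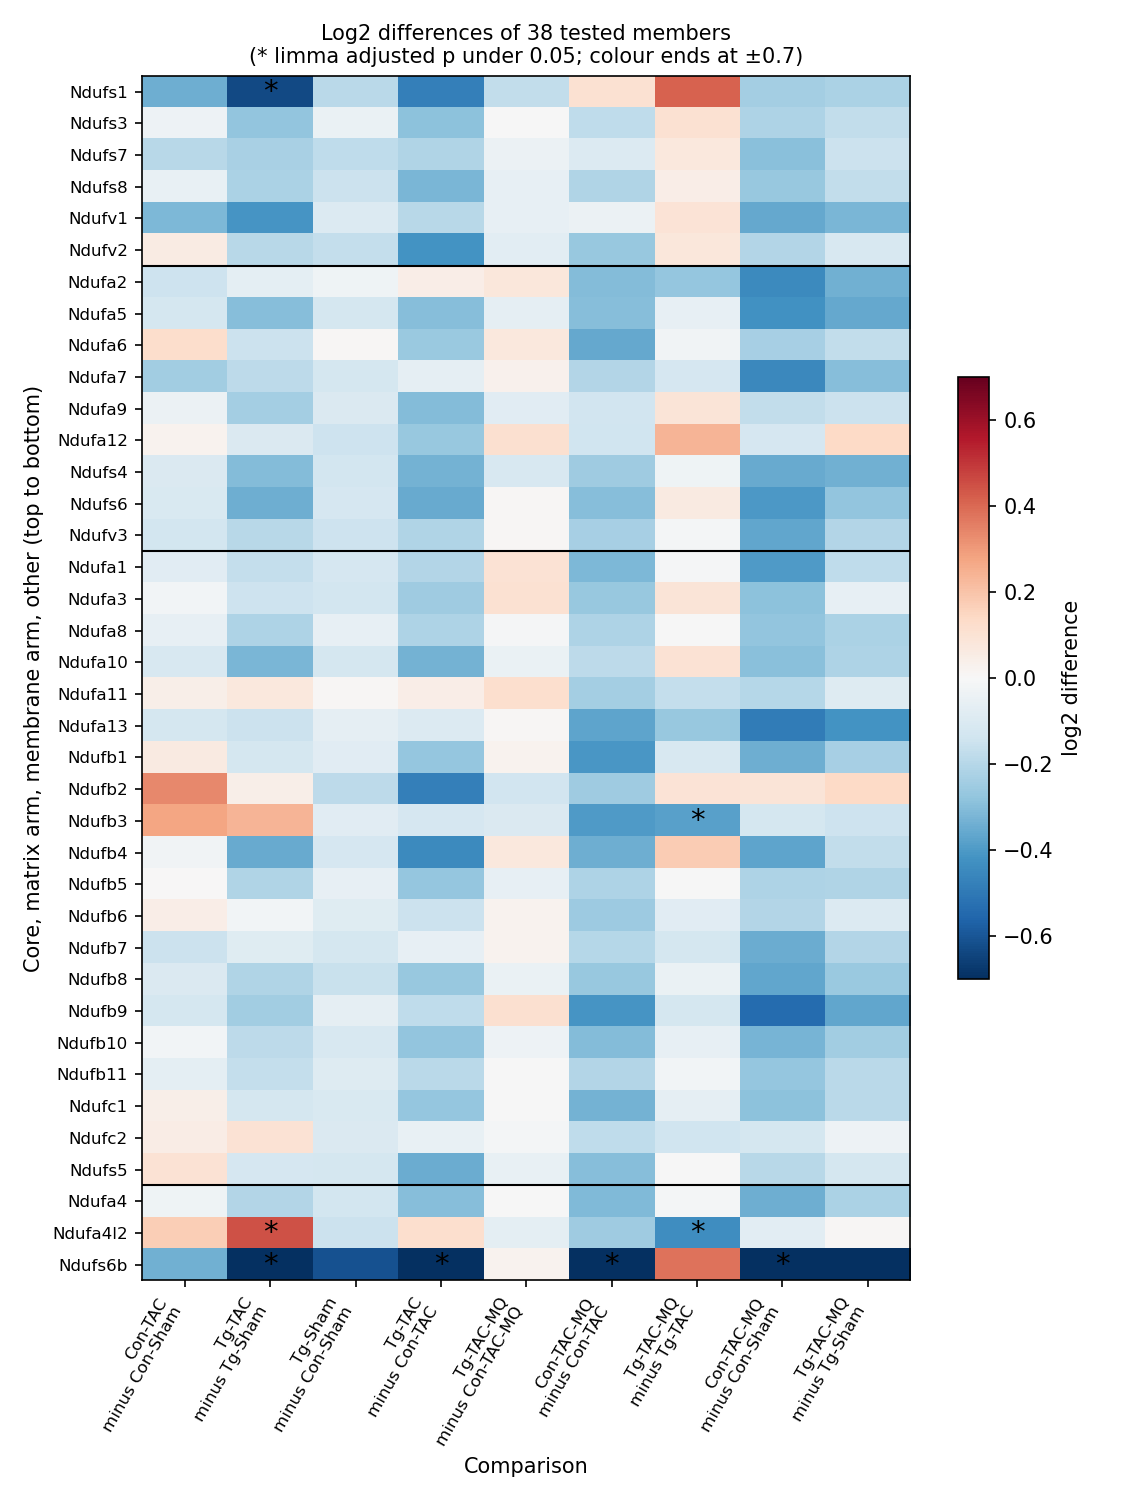
Log2 differences of 38 tested genes (rows, ordered by role) in the 9 comparisons of 2 groups (columns); colour runs to 0.7 in either direction and asterisks mark a limma adjusted p under 0.05. Asterisks stand at Ndufs1, Ndufa4l2 and Ndufs6b for Tg-TAC minus Tg-Sham, at Ndufa4l2 and Ndufb3 for Tg-TAC-MQ minus Tg-TAC, and at Ndufs6b alone in 3 other comparisons.

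Set against sham hearts, the MitoQ groups were lower in most subunits. Between Con-TAC-MQ and Con-Sham 38 of the 39 were negative (median -0.29), 19 with an unadjusted p under 0.05, and Ndufs6b alone was called (-1.53, SE 0.32, limma adjusted p = 0.0125), where 0.356% of all genes were called lower. The groups did not overlap for 15 of the 39, all lower, where this held for 2.0% of all genes. The core subunits Ndufs3, Ndufs8 and Ndufv1 were among the 15. Ndufa7, of the matrix arm, was 2891 to 4017 against 1953 to 2512 (-0.45, SE 0.13, adjusted p = 0.1, DESeq2 0.0297, which called 0.977% of all genes lower). In the fit on only these 12 libraries 7 were called lower, beside 1.05% of all genes: Ndufa1, Ndufa5, Ndufa7, Ndufa13, Ndufb9, Ndufs6 and Ndufs6b. With equal totals outside the mitochondrial genome, Rn18s-rs5 included, the median of all genes moved to 0.18 and that of the 39 to -0.12. With the name number class as a covariate the median was 0.61 with 0 called (0.688% of all genes). Between Tg-TAC-MQ and Tg-Sham 36 were negative (median -0.20), 4 had an unadjusted p under 0.05, and limma, edgeR and DESeq2 called 0, where limma called 0.129% of all genes. With equal totals the median of all genes moved to 0.15 and that of the 39 to -0.06. With the name number class as a covariate, again through Con-TAC 6 alone, that of the 39 was 0.70 with 1 negative, so the direction depends on the fit. Name numbers differ between these groups as well. Between Con-TAC-MQ and Con-Sham 5 of 6 erythroid markers were called higher, with sums of 5724 to 13183 against 1448 to 4401. Unadjusted p was under 0.05 for all 6, beside 16.8% of all genes. After TAC with vehicle 5 of the 6 were also called higher than in Con-Sham, with sums of 3737 to 8415. Limma called no cardiomyocyte, fibroblast or macrophage marker. DESeq2 called 5 fibroblast, 1 cardiomyocyte and 1 macrophage marker, and edgeR called 1 of each. Of 12 cardiomyocyte markers 10 were negative (median -0.25), and of 12 fibroblast markers 11 were positive (median 0.59). Between Tg-TAC-MQ and Tg-Sham 0 of these markers were called. Median Rn18s-rs5 counts were 2054851 in Con-Sham against 301278 in Con-TAC-MQ and 1689975 in Tg-Sham against 258826 in Tg-TAC-MQ. The part of these was not tested.

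The differences between differences were not called. The effect of TAC in cSirt4-Tg minus that in Control had a median of -0.16 over the 39, with 33 negative, 1 unadjusted p under 0.05 and a smallest adjusted p of 0.843, where 0.0% of all genes were called. The 3 genes with the smallest p were Ndufs6b (-0.93, SE 0.46), Ndufa4l2 (0.27, SE 0.16, adjusted p = 0.853) and Ndufa6 (-0.27, adjusted p = 0.877). The effect of MitoQ in cSirt4-Tg minus that in Control was positive for all 36 subunits (median 0.24), with 1 of the 39 genes at an unadjusted p under 0.05 and a smallest adjusted p of 0.479. The 3 genes were Ndufs6b (1.57, SE 0.46), Ndufb4 (0.52, SE 0.26, adjusted p = 0.59) and Ndufa12 (0.38, adjusted p = 0.606). Both interactions share libraries with the comparisons above, edgeR and DESeq2 called 0 in each, and neither shows that the effects were alike.

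The 7 subunits encoded in the mitochondrial genome make the proton-pumping core of the membrane arm. Between Tg-TAC and Con-TAC 4 of the 7 were called lower: mt-Nd1 (-0.54), mt-Nd2 (-0.63), mt-Nd4 (-0.66) and mt-Nd4l (-2.01), with limma adjusted p = 0.0385, 0.0318, 0.0387 and 0.013. All 7 were negative, with a median of -0.63, beside -0.27 for the nuclear genes, and 3.29% of all genes were called lower. Leaving out 1 library gave 1 to 6 calls, and the fit on only the libraries compared gave 0 (smallest adjusted p = 0.205). Between Tg-TAC and Tg-Sham mt-Nd5 (-0.56, limma adjusted p = 0.0233) and mt-Nd4l (-1.74, limma adjusted p = 0.00875) were called lower (median -0.45), beside 8.77% of all genes. With MitoQ in cSirt4-Tg hearts mt-Nd4l was called higher (1.31, limma adjusted p = 0.0396), and the other 6 comparisons of 2 groups called none. The values of mt-Nd4l rest on few counts, 5.535 to 16.26 in Con-TAC and 0 to 4.625 in Tg-TAC. Those of mt-Nd3 do too, at 7.739 to 15.1 and 0 to 10.78, where mt-Nd4 had 279518 to 484399 in Tg-TAC. Whether these 2 rows measure their subunits was not tested, and the calls of mt-Nd4l are uncertain. With a minimum of 50 counts 5 of the 7 were tested. Of these 3 were called lower between Tg-TAC and Con-TAC, with a median of -0.54.

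Assembly factors build the complex and are not part of it. Of 19 tested, Acad9 (-0.33, limma adjusted p = 0.0193) and Ndufaf4 (-0.47, adjusted p = 0.0369) were called lower in Tg-TAC than in Tg-Sham, where 8.77% of all genes were, near their share of the list. Ndufaf4 (-0.55, limma adjusted p = 0.0349) and Tmem186 (-0.31, adjusted p = 0.0399) were lower in Tg-TAC than in Con-TAC, and Acad9 was higher with MitoQ in cSirt4-Tg hearts (0.41, adjusted p = 0.00428). Of 13 transcriptional regulators of respiratory genes, 5 fell with TAC in cSirt4-Tg hearts, beside 8.77% of all genes. The 3 with the smallest adjusted p were the coactivator Ppargc1a (-0.81, limma adjusted p = 0.00494) and the nuclear receptors or factors Esrrg (-0.44, adjusted p = 0.0103) and Gabpa (-0.31, adjusted p = 0.0151). With MitoQ in cSirt4-Tg hearts 5 were higher, beside 9.89% of all genes, among them Ppara, which drives fatty acid oxidation genes (1.51, limma adjusted p = 0.000655), Esrrg (0.58, adjusted p = 0.00106) and Gabpa (0.38, adjusted p = 0.00421). The nuclear subunits had medians of -0.19 and -0.01 in these comparisons. Esrrg (-0.55, limma adjusted p = 0.0098), Tfb2m (-0.36, adjusted p = 0.013) and Esrrb (-0.40, adjusted p = 0.045) were lower in Tg-TAC than in Con-TAC, and Ppargc1b (-0.69, adjusted p = 0.0367) in Con-TAC than in Con-Sham. With MitoQ in Control hearts Ppara was higher (1.09, limma adjusted p = 0.0277). Ndufab1, the acyl carrier protein that also serves as a subunit, was not called in any of the 9 comparisons.

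The nuclear subunits of complexes II to V (46 genes) had medians near those of complex I: -0.20 beside -0.19 between Tg-TAC and Tg-Sham, -0.21 beside -0.27 between Tg-TAC and Con-TAC, and -0.30 beside -0.29 between Con-TAC-MQ and Con-Sham. Of the 46 genes, 1 was called higher and 2 lower in the first of these comparisons, 1 higher in the second and 0 in the last. In the first, 7.91% of all genes were higher and 8.77% lower, shares above those of the 46. In the second, 11 of the 46 had an unadjusted p under 0.05, beside 26.5% of all genes. No difference between the families was tested.

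Transcript length was set against the log2 difference over the 36 subunits, as Spearman's rho beside that over the 16229 tested genes with a length. It was -0.53 beside 0.01 between Tg-TAC and Con-TAC, -0.44 beside -0.1 between Tg-TAC and Tg-Sham, -0.61 beside -0.1 between Tg-TAC-MQ and Con-TAC-MQ, and -0.42 beside -0.07 between Tg-Sham and Con-Sham. With MitoQ it was 0.49 beside 0.29 in cSirt4-Tg and 0.40 beside 0.46 in Control hearts. It was -0.13 beside -0.19 between Con-TAC and Con-Sham, 0.17 beside 0.24 between Con-TAC-MQ and Con-Sham, and -0.07 beside 0.33 between Tg-TAC-MQ and Tg-Sham. The rho with the mean level was -0.56 beside -0.03 between Tg-TAC and Tg-Sham and 0.57 beside 0.01 with MitoQ in Control hearts. These are relations across genes, which share libraries and are not independent replicates, and no p is given.

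Tg-TAC 4 and Con-TAC 6, the libraries with the lowest subunit levels, also had the lowest cardiomyocyte markers. The mean log2 level of 11 of the 12 markers, relative to the Con-Sham mean, was -1.11 in Tg-TAC 4, -0.78 in Con-TAC 6 and -0.69 in Con-TAC-MQ 3, whose subunits were at -0.89, -0.74 and -0.62. It was 0.16 in the library labelled Tg-TAC 6, with subunits at 0.27. In Tg-TAC 5 the markers were at -0.70, below Con-TAC-MQ 3, and the subunits at -0.43. Tg-Sham 5 stood apart, with markers at -0.12 and subunits at 0.26. Myl7 was left out of this mean after its values were seen, since it was 4611 in Con-TAC-MQ 5, 404.2 in Tg-TAC-MQ 4 and at most 117.0 elsewhere. With it Con-TAC 6 was at -0.21 and Con-TAC-MQ 5 at 0.75, and without it Con-TAC-MQ 5 was at -0.22. The part of the cardiomyocyte share in the subunit levels was not tested.

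**Figure D5:**
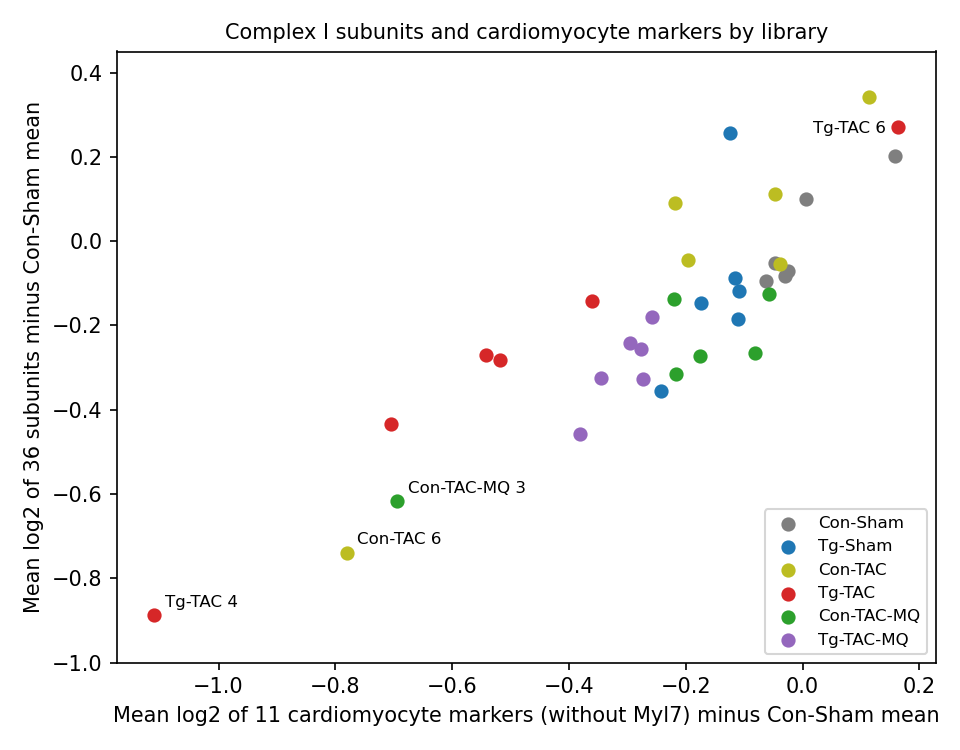
Mean log2 level of the 36 subunits (y axis) against the mean log2 level of 11 cardiomyocyte markers (x axis, Myl7 left out), each relative to the Con-Sham mean, for the 36 libraries coloured by group. Tg-TAC 4 is lowest on both axes (-0.89 and -1.11), followed by Con-TAC 6 (-0.74 and -0.78). Next come Con-TAC-MQ 3 on the subunit axis (-0.62, markers -0.69) and Tg-TAC 5 on the marker axis (-0.70, subunits -0.43).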

How the data were processed

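The libraries were made from total RNA of whole hearts, isolated with the RNeasy Fibrous Tissue kit, with the stranded NEBNext Ultra II Directional kit, per the labels' protocols. The submitters' processing notes name Trim Galore, a read trimmer, STAR, an aligner, and the mouse genome build mm39. No version, counting step or use of strand is stated. The unit of the deposited values is a signal, 1 value for each gene in each library. These values proved to be read counts scaled by 1 factor per library (100% of them lay within 0.01 read of whole reads), so read counts were recovered for edgeR and DESeq2, and the totals give the depth. All columns of the authors' table were matched to samples by name. Groups come from the labels.

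Testing was limited to genes that reached 10 in 6 or more libraries (16275 of 25626). The main test was limma 3.58.1 in R 4.3.3 on log2(value + 1), fitted to all 36 libraries with 6 group means and 30 residual degrees of freedom, with a trend and robust moderation, two-sided. Intervals of 95% use 30 degrees of freedom. Benjamini-Hochberg adjustment ran over all tested genes, with a threshold of 0.05. There were 9 comparisons of 2 groups and 2 interactions. A fold on this scale is understated for low genes. Limma p-values set a difference against the spread between mice of the same group, pooled over the 6 groups. That spread was not equal: the SD of the mean subunit level was 0.378 in Tg-TAC and 0.0955 in Tg-TAC-MQ. Values in full were given to the core subunits, the called members with the smallest adjusted p, the 3 members with the smallest p in each interaction, Ndufa4, Ndufa4l2 and untested members. From other lists up to 3 called genes per comparison were named, and all mitochondrially encoded subunits. The values of 1 core subunit are not reported here, and counts and medians include it. Members and lists were chosen with earlier results of these data known.

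Transcript lengths and the Ndufs6 pair come from GENCODE M21 (GRCm38), promoters from RefSeq (GRCm38.p6) and gene coordinates from the deposited table (mm39). Alternatives were a pseudocount of 0.5 or 10, a minimum of 50 or none, TMM factors, equal totals outside the mitochondrial genome, median-centred values, the replicate number as a block, the name number class as a covariate, only libraries named 7 to 14, only the libraries compared, count tests of the recovered reads (DESeq2 1.42.0 and edgeR 4.0.16), and fits without each library. Equal totals outside the mitochondrial genome were taken over all other listed genes, Rn18s-rs5 included. The steps were tested on simulated data. Isoforms and proteins are not analysed here.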

Additional observations from a re-analysis of the deposited data

Results flagged for a closer look

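Samples far from the rest of their group were sought in 42 groups of 6 values (the mean of the 36 subunits and 6 genes in each of the 6 groups), and chance flags about 1 in 20 such groups. Con-TAC 6 was lowest of its group in the mean log2 level of the 36 subunits (-0.74, others -0.06 to 0.34), in Ndufs6 (3488, others 6302 to 8322) and in Ndufv1 (12054, others 17974 to 21100). Con-TAC-MQ 3 was lowest of its group in Ndufs1 (14848, others 21135 to 25043) and Ndufv1 (12484, others 17616 to 20615). It also had the highest summed macrophage markers of its group (22421). Con-Sham 2 was highest of its group in Ndufv1 (26130, others 20983 to 22557). The part of these libraries in the results is given by the fits without them.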

How the results depend on the processing

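Of the values of called genes and of the 3 genes per interaction, under the settings other than leaving out 1 library, 178 kept direction and call, 18 kept the direction and lost the call, and 1 reversed: Ndufb3, Tg-TAC-MQ minus Tg-TAC, was 0.26 with the name number class as a covariate. Uncalled differences turned too: with this covariate 2 of the 39 were negative for Con-TAC-MQ minus Con-TAC (38 without it), 1 for Con-TAC-MQ minus Con-Sham and 1 for Tg-TAC-MQ minus Tg-Sham. Counts of called members, with the main count first, changed as follows. For Tg-TAC minus Con-TAC (1) they were 0 with a minimum of 50, 0 with only the libraries compared, 26 with the name number class as a covariate, 33 with only libraries named 7 to 14 and 4 with DESeq2. For Tg-TAC minus Tg-Sham (4) the count was 1 with only the libraries compared. For Con-TAC-MQ minus Con-TAC (1) it was 0 with no filter, with a minimum of 50 and with only the libraries compared, and 2 with DESeq2. For Tg-TAC-MQ minus Tg-TAC (2) it was 1 (Ndufa4l2, lower) with no filter, TMM factors, median-centred values, the replicate block and only the libraries compared. It was 1 with equal totals outside the mitochondrial genome (Ndufs1, higher, both main calls being lost). For Con-TAC-MQ minus Con-Sham (1) it was 0 with a minimum of 50, 7 with only the libraries compared and 2 with DESeq2. Counts with the name number class as a covariate are not given for MitoQ against vehicle groups, since that fit rests there on Con-TAC 6. A minimum of 50 removes Ndufs6b from the tested genes. The causes of the other changes were not tested. Leaving out the library labelled Tg-TAC 6 and Tg-TAC 4 together, an alternative chosen after seeing the data, gave 1 for Con-TAC minus Con-Sham (main count 0), 3 for Tg-TAC minus Con-TAC, 2 for Con-TAC-MQ minus Con-TAC and 3 for Con-TAC-MQ minus Con-Sham. Leaving out each library in turn gave counts of 3 to 11 for Tg-TAC minus Tg-Sham, 1 to 25 for Tg-TAC minus Con-TAC, 0 to 19 for Con-TAC-MQ minus Con-TAC, 1 to 2 for Tg-TAC-MQ minus Tg-TAC, and the main count in the other comparisons and the interactions. Replicate numbers did not pair the libraries (r of 90 same-numbered pairs -0.483 to 0.311, median 0.01, beside -0.009 for other pairs), and the replicate block changed no other count by over 1.5 times. Depth (14834719 to 60010648 reads) limits Ndufs6b, Ndufa11b and Ndufb4c most, which hold few counts.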
